A study of Mus musculus with 4 samples.

Results

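The Sprr (small proline-rich) and Lce (late cornified envelope) genes are described in the dorsal skin of IMQ-treated mice. The members are all gene symbols of the deposited files that begin with Sprr or Lce followed by a digit, which gave 37 of 24346 symbols: 2 Sprr1, 12 Sprr2, Sprr3 and Sprr4, 14 Lce1, 6 Lce3 and Lce6a. Male C57BL/6 mice, 8 weeks old at the start, were fed for 3 weeks a diet rich in fat, sucrose, cholesterol and bile salt that leads to steatohepatitis (NASH diet), either alone (Cont-IMQ group) or with added 7-ketocholesterol, an oxidation product of cholesterol (7KC-IMQ group). Imiquimod (IMQ), a cream that activates toll-like receptor 7 and induces psoriasis-like dermatitis, was then applied to the back for 1 day in both groups. RNA sequencing of whole dorsal skin gave 4 libraries, 2 per group (replicates 1 and 2), and vehicle-treated skin was not analysed here. The labels do not say whether replicates are separate mice or pools, so p-values measure the spread between these libraries only.

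The cornified envelope is the protein shell that replaces the plasma membrane of keratinocytes as they die and form the outer layer of the skin. Transglutaminases cross-link loricrin, involucrin, SPRR and LCE proteins into this shell, and most of these proteins are encoded side by side in the epidermal differentiation complex. Sprr1 and Sprr2 genes are known to be switched on in wounded, irradiated and psoriatic epidermis, where SPRR proteins act as cross-bridges between other envelope proteins. In human skin, LCE1 genes are expressed in healthy upper epidermis, while LCE3 genes are low there and are induced by barrier injury and in psoriasis. In whole skin, fewer cells of a type and less RNA per cell cannot be told apart.

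All 37 members lie on chromosome 3, from 92215799 to 93019060 of GRCm38 (mm10), a stretch of 803 kb with 18 genes on the plus and 19 on the minus strand. The Sprr2 genes come first, at 92215799 to 92433925, and all 12 are on the plus strand. They are followed by Sprr1b, Sprr3, Sprr1a, Sprr4 and Lce6a. Of the Lce1 genes, 13 lie between 92646535 and 92851286, the 6 Lce3 genes follow at 92925287 to 92993426, and Lce1m lies apart from the other Lce1 genes, 24.4 kb beyond Lce3f. The 13 grouped Lce1 genes therefore sit between the Sprr genes and the Lce3 genes, with 74.0 kb from Lce1l to Lce3a.

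Because paralogs have similar sequence, reads can be split between them. Of the 75-base windows in the transcripts of Sprr2a1 and Sprr2a2, 94.3% and 95.6% also occur in other genes, so these 2 genes cannot be told apart with confidence, and for Sprr2a3 the share was 44.2%. Among Lce3 genes, the share was 28.0% for Lce3c, 38.6% for Lce3d, 41.1% for Lce3e and 45.6% for Lce3f, and 9.47% and 6.15% for Lce3a and Lce3b. The other Sprr2 genes had at most 6.08% and the Lce1 genes at most 13.5%. No window was shared with a gene outside the Sprr and Lce families, and the gene with which a member shared most lay in its own subfamily. The sum over a subfamily therefore depends less on how reads were divided than the level of a single member.

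The sequence just upstream of the genes shows which members share promoter features and how the subfamilies that were higher in the 7KC-IMQ group differ in them. RefSeq promoters (GRCm38.p6, 250 bases before to 50 after the start site) were found for 34 of 37 members, all but Sprr2g, Sprr2j-ps and Lce1f. Both strands were searched for TGANTCA, the recognition sequence of AP-1 (dimers of Fos and Jun proteins). It was present in 2 of 2 Sprr1 and 7 of 10 Sprr2 promoters, against 7.81% of 32851 mouse promoters. It was in none of 13 Lce1 and 6 Lce3 promoters, nor in those of Sprr3, Sprr4 and Lce6a. Paralogs can share promoter sequence, and the bases around the match were identical in Sprr2d and Sprr2e. Promoters of a subfamily are therefore not independent observations, here and for the motifs below. In the 7 Sprr2 promoters the match read TGAGTCA and began between 198 and 193 bases before the start. Sprr2k held a second match, TGACTCA, at -182. The AP-1 sites of Sprr2 and Sprr1 genes are shown with 10 bases on each side, 5′ to 3′ on the strand of the gene, and the capitals mark the match.
Sprr2b (chr3:92316500-92316526, plus strand): aaaggactctTGAGTCAcaagactcaa
Sprr2d (chr3:92338937-92338963, plus strand): gagtgctcacTGAGTCAcaggtctcaa
Sprr2e (chr3:92351940-92351966, plus strand): gagtgctcacTGAGTCAcaggtctcaa
Sprr2f (chr3:92364980-92365006, plus strand): aactgaatatTGAGTCAcagtgctcaa
Sprr2i (chr3:92407788-92407814, plus strand): aagggctcacTGAGTCAcaggactgaa
Sprr2h (chr3:92385477-92385503, plus strand): ggatggtctcTGAGTCActgcacttta
Sprr2k (chr3:92432376-92432402, plus strand): gaatgtcctcTGAGTCActgtacttga
Sprr1a (chr3:92486011-92486037, minus strand): taactaaagcTGAGTCAgagggtgaac
Sprr1b (chr3:92438874-92438900, minus strand): gcacctaggaTGAATCAtgtctgacag

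The promoters without a match among the Sprr2 genes were those of Sprr2a1, Sprr2a2 and Sprr2a3. In Sprr1a the matches began at -146 and -116, and in Sprr1b at -111. A match describes letters only, and its absence says only that these letters are not in this window.

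The TATA box, TATAAA, was found in 2 of 2 Sprr1 and 7 of 10 Sprr2 promoters, in 2 of 13 Lce1 promoters (Lce1d and Lce1m) and 1 of 6 Lce3 promoters, against 13.6% of all promoters. In all 7 Sprr2 promoters with this sequence it began at -29, whereas the Lce3 match (Lce3e) lay at -243. TATAAA was also in the promoters of Sprr3, at -33, and Lce6a, at -218. The variant ATAAAA, searched after the promoters had been read and able to overlap TATAAA, was found in 12 of 13 Lce1 and 6 of 6 Lce3 promoters, against 18.5% of all promoters. It was also in 2 of 2 Sprr1, 3 of 10 Sprr2 and 2 of 2 Sprr3 and Sprr4 promoters and in that of Lce6a. In Sprr4 and Lce6a the ATAAAA match lay far from the start, at -216 and -219. In Lce1 promoters it began between -31 and -28, and Lce1a1 was the promoter without it. The sequences from 80 bases before the start are shown for the 6 other Sprr2 genes with a TATA box, the Sprr1 genes, and 3 Lce3 and 3 Lce1 genes. Capitals mark TATAAA in Sprr genes and ATAAAA in Lce genes, and each sequence ends before the start of the gene in RefSeq and in GENCODE.
Sprr2d (chr3:92339060-92339139, plus strand): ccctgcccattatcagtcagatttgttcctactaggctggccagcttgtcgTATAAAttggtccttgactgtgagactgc
Sprr2e (chr3:92352063-92352142, plus strand): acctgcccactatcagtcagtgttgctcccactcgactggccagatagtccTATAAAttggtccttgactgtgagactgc
Sprr2f (chr3:92365107-92365186, plus strand): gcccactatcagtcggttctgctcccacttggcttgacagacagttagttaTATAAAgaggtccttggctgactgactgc
Sprr2i (chr3:92407911-92407990, plus strand): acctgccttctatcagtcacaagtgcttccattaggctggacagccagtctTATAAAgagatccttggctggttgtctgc
Sprr2h (chr3:92385605-92385684, plus strand): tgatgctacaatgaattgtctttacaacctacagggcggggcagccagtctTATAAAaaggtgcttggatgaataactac
Sprr2k (chr3:92432502-92432581, plus strand): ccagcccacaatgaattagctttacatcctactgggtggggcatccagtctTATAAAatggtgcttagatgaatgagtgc
Sprr1a (chr3:92485896-92485961, minus strand): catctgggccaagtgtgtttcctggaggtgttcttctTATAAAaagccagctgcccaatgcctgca
Sprr1b (chr3:92438790-92438859, minus strand): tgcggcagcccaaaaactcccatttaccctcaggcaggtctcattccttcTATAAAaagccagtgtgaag
Lce3a (chr3:92926231-92926310, minus strand): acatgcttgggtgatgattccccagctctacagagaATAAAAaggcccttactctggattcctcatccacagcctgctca
Lce3b (chr3:92932899-92932978, plus strand): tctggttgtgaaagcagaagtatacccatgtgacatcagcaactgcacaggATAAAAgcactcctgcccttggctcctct
Lce3c (chr3:92944406-92944485, plus strand): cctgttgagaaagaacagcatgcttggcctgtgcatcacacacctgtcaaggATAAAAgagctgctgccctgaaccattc
Lce1a1 (chr3:92648308-92648387, minus strand): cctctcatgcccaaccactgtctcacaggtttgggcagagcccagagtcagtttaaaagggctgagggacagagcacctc
Lce1b (chr3:92656927-92657006, minus strand): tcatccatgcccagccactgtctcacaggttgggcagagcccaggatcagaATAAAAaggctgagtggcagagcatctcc
Lce1c (chr3:92679167-92679246, plus strand): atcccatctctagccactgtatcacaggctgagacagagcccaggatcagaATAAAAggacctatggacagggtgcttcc

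Longer upstream sequences are shown for the Sprr2 and the Lce1 gene with the largest difference between the groups, Sprr2b and Lce1m, with matches to AP-1 and the TATA box in capitals. The Sprr2b sequence ends at -86, before the GENCODE start, and so does not reach its TATA box at -29.
Sprr2b (chr3:92316455-92316619, plus strand): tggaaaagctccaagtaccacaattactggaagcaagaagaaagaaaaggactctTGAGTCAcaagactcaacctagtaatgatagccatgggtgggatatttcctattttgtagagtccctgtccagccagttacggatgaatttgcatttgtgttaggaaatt
Lce1m (chr3:93019062-93019311, minus strand): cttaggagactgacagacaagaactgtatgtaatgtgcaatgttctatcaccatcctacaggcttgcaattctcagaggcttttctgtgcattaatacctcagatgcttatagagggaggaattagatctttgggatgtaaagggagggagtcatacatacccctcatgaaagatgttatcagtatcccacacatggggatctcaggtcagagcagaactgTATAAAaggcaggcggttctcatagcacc

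The remaining motifs were found in few member promoters, as they were in few of all promoters. TTCNNNGAA, bound by STAT proteins, was in 2 of 10 Sprr2 promoters (Sprr2a3 and Sprr2i), in 1 of 13 Lce1 promoters (Lce1l) and in 8.30% of all promoters. TTGCNNAA, bound by C/EBP proteins, was in 1 Sprr2 (Sprr2i) and 1 Lce3 promoter (Lce3f) and in 10.8% of all. AACCNGTT, bound by Grainyhead-like proteins, was in no member promoter and in 2.09% of all.

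**Figure D1:**
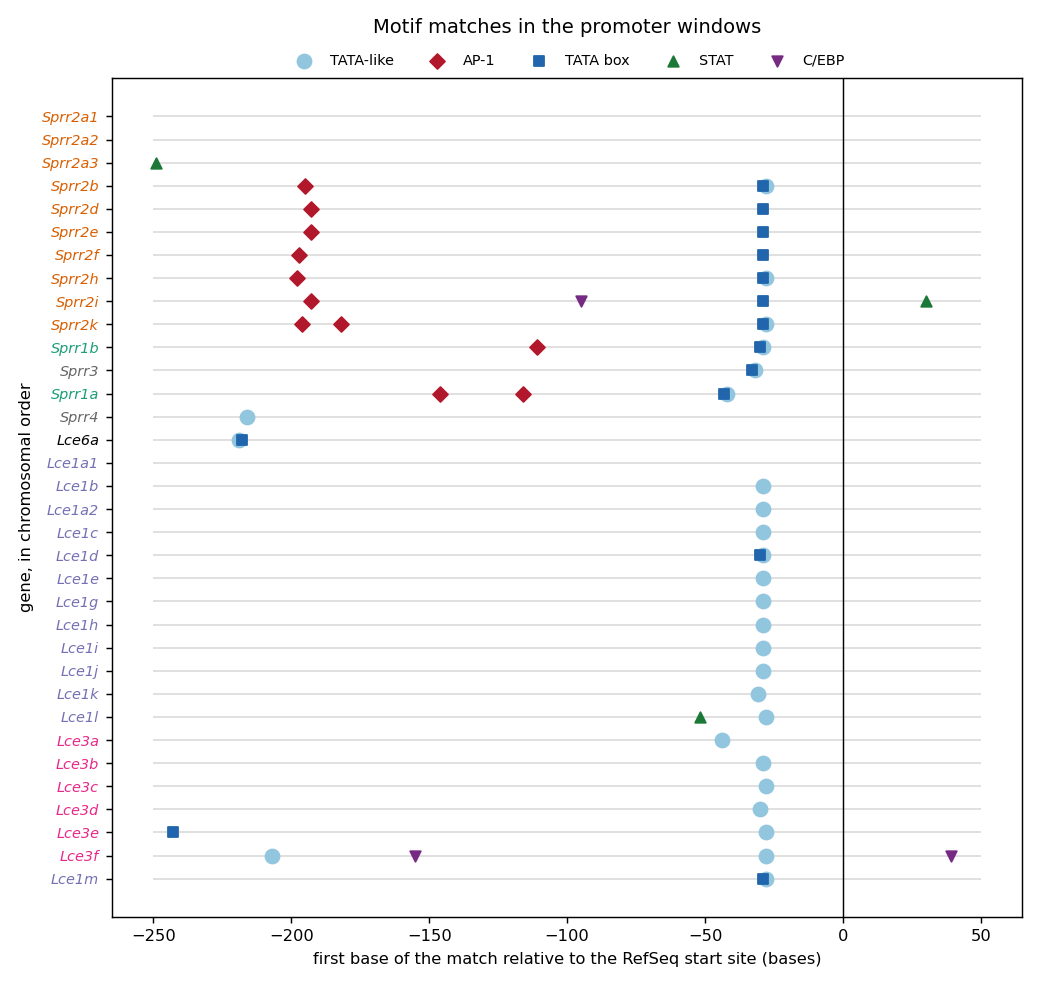
Matches to 5 motifs in the promoters of 34 members, in chromosomal order, with the position of the first base of the match relative to the RefSeq start site in bases on the x axis (TATA-like stands for ATAAAA). AP-1 matches lie between -198 and -182 in 7 of 10 Sprr2 promoters and between -146 and -111 in both Sprr1 promoters, and no Lce promoter has one.

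The level of each member was given as FPKM, a count of fragments scaled to exon length and to the mapped fragments of the library, so that levels of different genes can be compared per length. The read depth was estimated from the steps in the values of weakly expressed genes as 15230000 and 15130000 reads in the Cont-IMQ and 16290000 and 15010000 in the 7KC-IMQ group. With these estimates, 71.9% to 73.6% of weakly expressed genes came within 0.1 read of a whole number, against 20% by chance. Each depth was chosen to make this share as high as possible, whereas the 20% holds for a depth fixed beforehand. Between 7185 and 7388 symbols were listed at 0 in a library. The keratins that define the epidermis were high in all libraries: Krt5 lay between 2544 and 3062 FPKM and Krt14 between 4132 and 5700. Values below are given for replicate 1 and then replicate 2 of each group.

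The groups were compared by limma on log2(FPKM + 1) over 15896 genes whose FPKM averaged 0.1 or more, which included 36 of 37 members (Sprr3 was below it). Differences are 7KC-IMQ minus Cont-IMQ on this scale, on which changes of weakly expressed genes come out too small. No member passed a Benjamini-Hochberg adjusted p of 0.05, and their adjusted p ranged from 0.331 to 0.973. Only 0.00629% of all genes tested (1 gene) passed. With unadjusted p under 0.05, 15 members were higher in the 7KC-IMQ group and 0 were lower, whereas 7.5% of all genes tested were higher and 5.47% lower at that level.

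In 20 of the 36 members, each 7KC-IMQ library exceeded each Cont-IMQ library, while this held for 23.9% of all genes tested. The 20 members were 2 of 2 Sprr1, 12 of 12 Sprr2 and 6 of 6 Lce3 genes. Both lay below in 1 member, Lce1m, compared with 22.9% of all genes. The groups overlapped in the other 13 Lce1 genes, Sprr4 and Lce6a. A difference of at least 1 without overlap was found in 11 members, 9 Sprr2 and 2 Lce3 genes, against 0.484% of all genes. With 2 libraries a group, the smallest p that an exact permutation test allows is 0.333. The counts depended on the Cont-IMQ libraries: without Cont-IMQ replicate 1, 35 members were higher without overlap (38.6% of all genes), and without Cont-IMQ replicate 2, 16 were lower (38.6% of all genes).

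**Figure D2:**
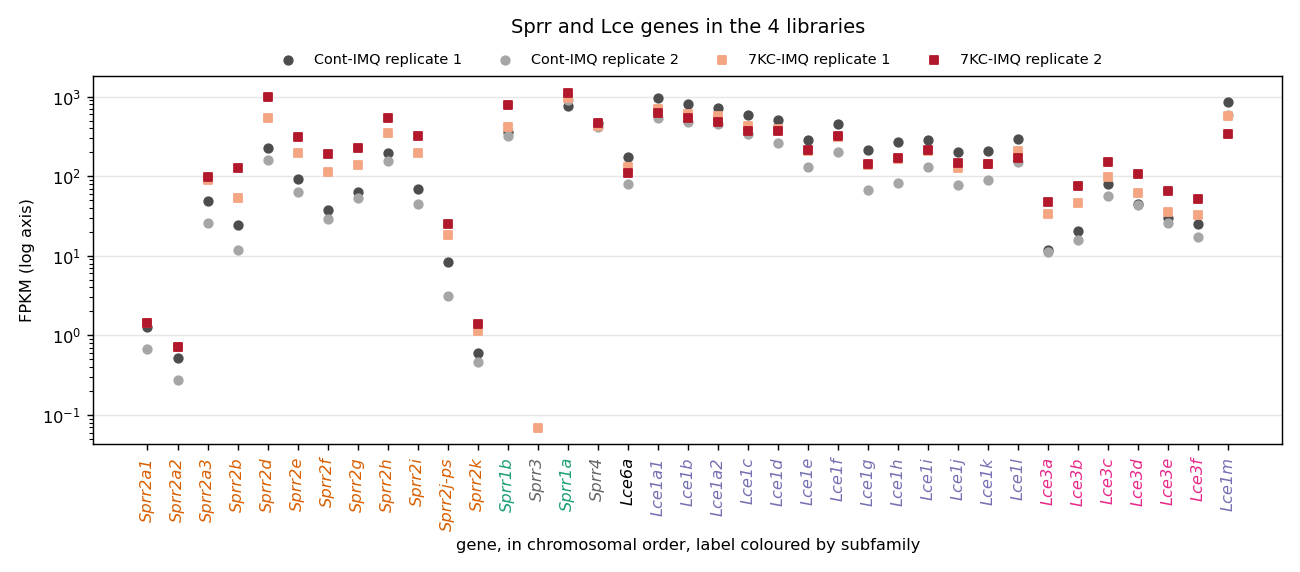
FPKM on a log axis for each member in chromosomal order (x axis, labels coloured by subfamily) in Cont-IMQ (circles) and 7KC-IMQ (squares) libraries, with values of 0 (Sprr3 in 3 libraries) not drawn. In the 12 Sprr2 and 6 Lce3 genes both squares lie above both circles, whereas in 13 of 14 Lce1 genes the squares lie between the circles.

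**Figure D3:**
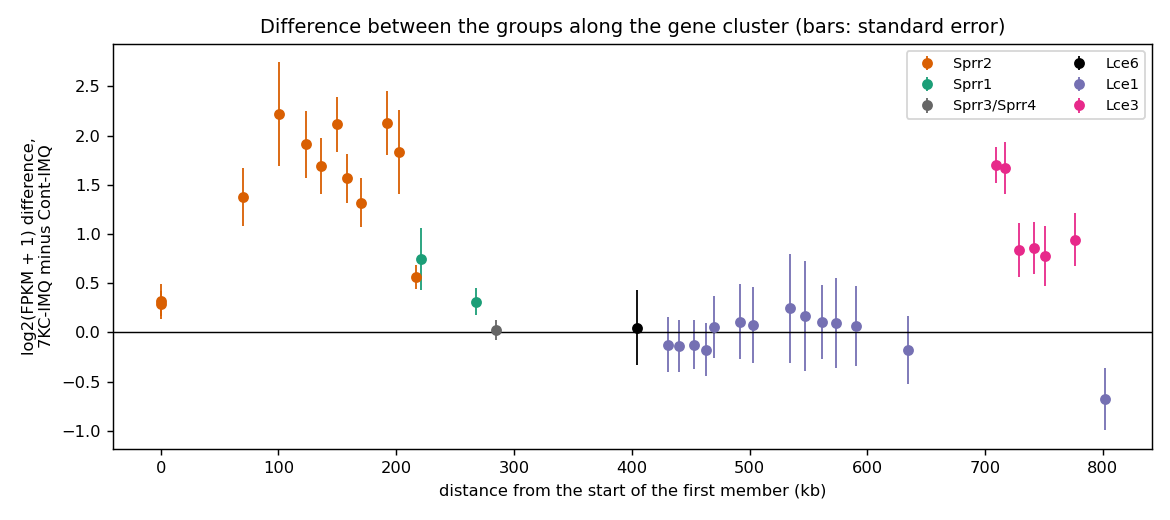
Difference between the groups on the log2(FPKM + 1) scale (y axis, bars show the standard error from limma, 2 libraries per group) against the distance from the start of the first member in kb (x axis) for 36 members. Sprr2 genes lie between 0.29 and 2.22 and Lce3 genes between 0.78 and 1.70, and the Lce1 genes between them on the chromosome lie between -0.18 and 0.24, with Lce1m at -0.68 beyond the Lce3 genes.

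The Sprr1 genes, which encode cross-bridging proteins of the envelope, were higher in both 7KC-IMQ libraries, but by small margins. Sprr1a (ENSMUSG00000050359, 92483952 to 92485895, minus strand) had the highest mean level of all members. Its FPKM was 754 and 900.2 in the Cont-IMQ group and 951 and 1104 in the 7KC-IMQ group, means of 827 ± 103 and 1028 ± 109 (SD, n = 2). The groups did not overlap, but the lowest 7KC-IMQ value was only 1.06 times the highest Cont-IMQ value. The difference was 0.31 (SE 0.14, adjusted p = 0.441), and it ranged from 0.19 without Cont-IMQ replicate 1 to 0.44 without Cont-IMQ replicate 2. Sprr1b (92436809 to 92438789, minus strand) had 358 and 325 FPKM in Cont-IMQ skin and 414 and 789 FPKM in 7KC-IMQ skin, with 7KC-IMQ replicate 2 well above the other libraries. Its difference was 0.75 (SE 0.32, adjusted p = 0.424) and ranged from 0.28 to 1.21 when each library was left out in turn.

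Summed over both genes, Sprr1 had 1112 and 1225 FPKM in Cont-IMQ skin and 1365 and 1893 FPKM in 7KC-IMQ skin, a ratio of means of 1.39. On the log2 scale this ratio was 0.48, and 0.22 without 7KC-IMQ replicate 2.

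The Sprr2 genes had the largest differences. They encode short proline-rich proteins that are cross-linked into the envelope, and in the mouse they form the biggest Sprr subfamily. Summed over the 12 genes, the level was 771 and 547 FPKM in Cont-IMQ skin and 1689 and 2820 FPKM in 7KC-IMQ skin, means of 659 ± 158 and 2254 ± 799 (SD, n = 2). The ratio of means was 3.42. The median difference of the 12 genes was 1.63, ranging from 0.29 to 2.22, whereas the median over all genes tested was -0.0056. Of the 12 genes, 10 had an unadjusted p under 0.05 by limma, against 7.5% of all genes tested that were higher at that level.

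Sprr2d (ENSMUSG00000042212, 92339140 to 92340873), the most abundant Sprr2 gene, contributed between 29.3% and 34.7% of the summed FPKM in each library. Its level was 228 and 160.4 FPKM in Cont-IMQ skin and 532 and 979 FPKM in 7KC-IMQ skin, so that the lowest 7KC-IMQ value was 2.34 times the highest Cont-IMQ value. The means were 194 ± 47.5 and 756 ± 316 (SD, n = 2), and the difference was 1.91 (SE 0.34, adjusted p = 0.352). Sprr2h (92385685 to 92387324) had the next highest level, with 196 and 154 FPKM in Cont-IMQ skin and 348 and 543 FPKM in 7KC-IMQ skin. Its difference was 1.32 (SE 0.25, adjusted p = 0.352). The largest difference was that of Sprr2b (92316620 to 92318085), with 24.1 and 11.9 FPKM in Cont-IMQ skin and 53.4 and 128 FPKM in 7KC-IMQ skin. The 2 libraries of each group differed more than 2-fold in this gene, 2.04-fold in the Cont-IMQ and 2.40-fold in the 7KC-IMQ group. The difference was 2.22 (SE 0.52, adjusted p = 0.356), and between 1.60 and 2.84 when a library was left out.

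Among the other Sprr2 genes, Sprr2e had 91.9 and 63.4 FPKM in Cont-IMQ skin and 198 and 314 FPKM in 7KC-IMQ skin. Sprr2i had 69.8 and 44.4 FPKM in Cont-IMQ skin and 193 and 317 FPKM in 7KC-IMQ skin. Sprr2g, annotated as a polymorphic pseudogene in GENCODE, had 64.2 and 53.5 FPKM in Cont-IMQ skin and 139 and 223 FPKM in 7KC-IMQ skin. In these 3 genes every 7KC-IMQ value was more than 2 times every Cont-IMQ value. Sprr2f had 38.0 and 29.1 FPKM in Cont-IMQ skin and 115 and 189.9 FPKM in 7KC-IMQ skin, and of all Sprr2 genes it had the widest gap, 3.01-fold between the nearest libraries of the groups. Sprr2a3 had 48.2 and 26.0 FPKM in Cont-IMQ skin and 90.1 and 97.0 FPKM in 7KC-IMQ skin.

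The remaining 4 Sprr2 genes were low. Sprr2j-ps is labelled a pseudogene by its symbol but annotated as protein-coding in GENCODE. It had 8.46 and 3.13 FPKM in Cont-IMQ skin and 18.2 and 24.9 FPKM in 7KC-IMQ skin. Sprr2a1, which shares nearly all of its sequence with Sprr2a2, had 1.28 and 0.666 FPKM in Cont-IMQ skin and 1.41 and 1.44 FPKM in 7KC-IMQ skin. Sprr2a2 lay between 0.274 and 0.708 and Sprr2k between 0.461 and 1.39 FPKM. For Sprr2k these values correspond to about 4 and 3 reads in the Cont-IMQ and 8 and 9 in the 7KC-IMQ group, near the floor of 3 reads. On the log2(FPKM + 1) scale the 3 low genes Sprr2a1, Sprr2a2 and Sprr2k had the smallest differences of the subfamily, 0.32, 0.29 and 0.56. Without Cont-IMQ replicate 2 they were 0.089 for Sprr2a1 and 0.16 for Sprr2a2, and without Cont-IMQ replicate 1 they were 0.54 and 0.42.

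Replicates differed in the same order across the subfamily. In all 12 Sprr2 genes, Cont-IMQ replicate 1 was above replicate 2, by 1.20 to 2.70 times, and 7KC-IMQ replicate 2 was at or above replicate 1, by 1.00 to 2.40 times. Therefore, the 12 genes are not 12 independent observations of the difference.

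Sprr3 and Sprr4 lie among the Sprr1 genes but did not show the same pattern. Sprr3 (92456502 to 92458720), a Sprr gene of the oesophagus and other internal squamous epithelia, was listed at 0 in 3 libraries and at 0.0693 FPKM, about 1 read, in 7KC-IMQ replicate 1. Sprr4 (92500263 to 92500493) had 461 and 416 FPKM in Cont-IMQ skin and 431 and 461 FPKM in 7KC-IMQ skin. These values overlapped, with a difference of 0.02 (SE 0.10, adjusted p = 0.937) that ranged from -0.05 to 0.10 when a library was left out. The annotated Sprr4 transcript has only 231 bases, and the FPKM of a transcript this short depends strongly on the length correction, so its level relative to other members is uncertain.

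The Lce1 genes were the most abundant subfamily, and their groups overlapped in 13 of 14 genes. They encode proteins incorporated late into the envelope of the upper epidermis. Summed over the 14 genes, the level was 6640 and 3598 FPKM in Cont-IMQ skin and 4756 and 4242 FPKM in 7KC-IMQ skin. The Cont-IMQ libraries thus stood on both sides of the 7KC-IMQ libraries. The means were 5119 ± 2152 and 4499 ± 363 (SD, n = 2), with a ratio of 0.879 and a median difference of 0.06.

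Lce1a1 (ENSMUSG00000057609, 92646535 to 92648307), whose mean level was exceeded only by that of Sprr1a, had 951 and 546 FPKM in Cont-IMQ skin and 699 and 625 FPKM in 7KC-IMQ skin. Its difference was -0.13 (SE 0.28, adjusted p = 0.883). Lce1b (92655650 to 92656926) had 805 and 483 FPKM in Cont-IMQ skin and 606 and 532 FPKM in 7KC-IMQ skin, with a difference of -0.13 (SE 0.26, adjusted p = 0.859). Both genes changed sign with the library left out, to 0.27 and 0.23 without Cont-IMQ replicate 1.

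Lce1a2 had 729 and 452 FPKM in Cont-IMQ skin and 572 and 486 FPKM in 7KC-IMQ skin. Lce1c, the only Lce1 gene on the plus strand, had 581 and 343 FPKM in Cont-IMQ skin and 425 and 367 FPKM in 7KC-IMQ skin. Lce1d had 507 and 265 FPKM in Cont-IMQ skin and 389 and 373 FPKM in 7KC-IMQ skin. All 3 lay in the same order as Lce1a1, with Cont-IMQ replicate 1 highest and replicate 2 lowest. Lce1f had 448 and 201 FPKM in Cont-IMQ skin and 312 and 319 FPKM in 7KC-IMQ skin. Lce1e had 289 and 131 FPKM in Cont-IMQ skin and 205 and 216 FPKM in 7KC-IMQ skin, and the values of Lce1i, 288 and 132 against 205 and 214, were nearly the same. In Lce1h the ratio between the Cont-IMQ libraries was the highest of the Lce1 genes, at 267 and 82.1 FPKM, with 164 and 169 in the 7KC-IMQ group.

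Lce1g had 214 and 66.3 FPKM in Cont-IMQ skin and 139 and 144 FPKM in 7KC-IMQ skin. Lce1k had 207 and 88.9 FPKM in Cont-IMQ skin and 141 and 143 FPKM in 7KC-IMQ skin. Lce1j had 204 and 78.7 FPKM in Cont-IMQ skin and 127 and 145 FPKM in 7KC-IMQ skin. Lce1l, the last of the grouped Lce1 genes, had 297 and 149 FPKM in Cont-IMQ skin and 205 and 169 FPKM in 7KC-IMQ skin. In these 4 genes, too, both 7KC-IMQ values lay between the Cont-IMQ values. Across the 14 Lce1 genes, Cont-IMQ replicate 1 was 1.47 to 3.26 times replicate 2.

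Lce1m (ENSMUSG00000027912, 93017810 to 93019060) lay apart from the other Lce1 genes, and it was the Lce1 gene whose groups did not overlap. It had 853 and 579.5 FPKM in Cont-IMQ skin and 567 and 339 FPKM in 7KC-IMQ skin, means of 716 ± 193 and 453 ± 162 (SD, n = 2). The groups did not overlap, but Cont-IMQ replicate 2 and 7KC-IMQ replicate 1 were close. The difference was -0.68 (SE 0.32, adjusted p = 0.448), and between -1.05 and -0.31 when a library was left out.

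The Cont-IMQ libraries differed in more than Lce1 genes. Krt1 and Krt10, the keratins of suprabasal keratinocytes, were highest in Cont-IMQ replicate 1 (5867 and 8444 FPKM) and lowest in Cont-IMQ replicate 2 (3191 and 4597 FPKM). In the 7KC-IMQ group Krt1 was at 4057 and 4845 and Krt10 at 5283 and 5553 FPKM. The summed level of 9 hair follicle markers ran the other way, at 18.6 and 152.5 FPKM in Cont-IMQ skin and 56.9 and 49.6 FPKM in 7KC-IMQ skin. All 9 overlapped between the groups, and their part in the Lce1 values was not tested.

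Lce3 genes, in contrast, were higher in both 7KC-IMQ libraries in all 6 genes, against 23.9% of all genes tested. The summed Lce3 level was 211 and 171 FPKM in Cont-IMQ skin and 307 and 499.995 FPKM in 7KC-IMQ skin. The means were 191 ± 28.4 and 403 ± 137 (SD, n = 2). The ratio of means was 2.11 and the median difference 0.90. By limma, 5 of 6 genes had an unadjusted p under 0.05, against 7.5% of all genes tested that were higher at that level. In all 6 genes Cont-IMQ replicate 1 was above replicate 2 and 7KC-IMQ replicate 2 was above replicate 1. The 6 genes are therefore not 6 independent observations of the difference. On the log2 scale the ratio was 1.08, and 0.68 without 7KC-IMQ replicate 2.

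Lce3c (ENSMUSG00000045475, 92944486 to 92945733) had the highest level of the 6, with 79.5 and 56.8 FPKM in Cont-IMQ skin and 96.4 and 152 FPKM in 7KC-IMQ skin. Its difference was 0.84 (SE 0.27, adjusted p = 0.365), and 0.51 without 7KC-IMQ replicate 2. Lce3d (92957390 to 92958505) had 45.3 and 44.0 FPKM in Cont-IMQ skin and 62.2 and 107 FPKM in 7KC-IMQ skin, with a difference of 0.86 (SE 0.26, adjusted p = 0.362) that was 0.47 without 7KC-IMQ replicate 2. In both genes 7KC-IMQ replicate 2 stood well above replicate 1. Lce3a (ENSMUSG00000054325, 92925287 to 92926230), the Lce3 gene next to the Lce1 genes, had the largest difference of the subfamily. It had 12.0 and 11.3 FPKM in Cont-IMQ skin and 33.6 and 48.0 FPKM in 7KC-IMQ skin, with a difference of 1.70 (SE 0.18, adjusted p = 0.331). Every 7KC-IMQ value of Lce3a was at least 2.80 times every Cont-IMQ value.

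Lce3b, its neighbour, had 20.3 and 16.0 FPKM in Cont-IMQ skin and 46.7 and 76.2 FPKM in 7KC-IMQ skin, a gap of 2.30-fold between the nearest libraries. Lce3e had 29.5 and 25.8 FPKM in Cont-IMQ skin and 35.1 and 65.5 FPKM in 7KC-IMQ skin. Lce3f had 24.9 and 17.5 FPKM in Cont-IMQ skin and 32.9 and 51.1 FPKM in 7KC-IMQ skin. The differences of Lce3a and Lce3b, which share little sequence with other members, were 1.70 and 1.67, and those of the 4 genes that share more ranged from 0.78 to 0.94. The difference of Lce3e was 0.34 without 7KC-IMQ replicate 2.

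Lce6a, which lies alone between Sprr4 and the Lce1 genes, had 172 and 79.0 FPKM in Cont-IMQ skin and 132 and 110.4 FPKM in 7KC-IMQ skin. Its values were arranged as in the Lce1 genes, with both 7KC-IMQ libraries between the Cont-IMQ libraries. The difference was 0.05 (SE 0.38, adjusted p = 0.973).

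**Figure D4:**
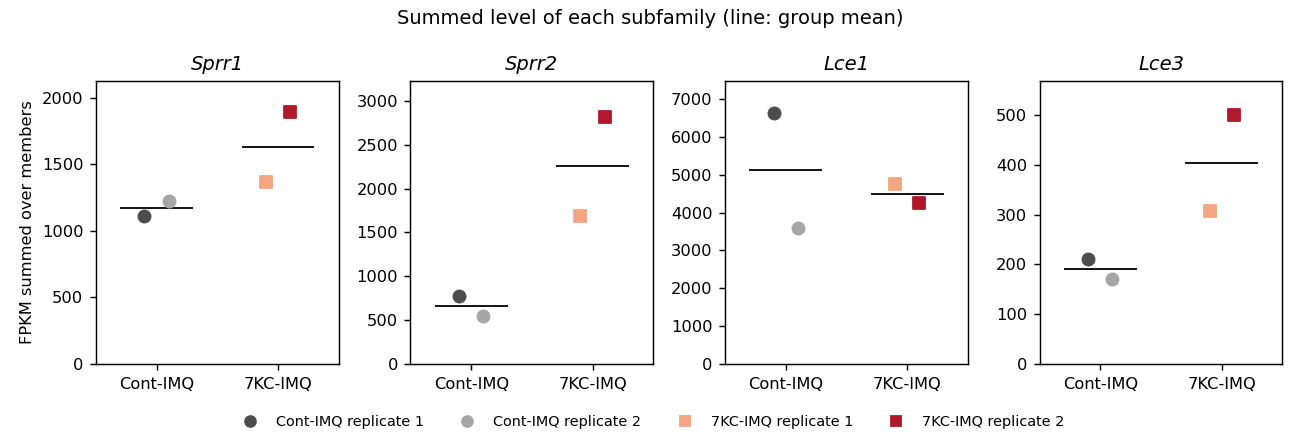
FPKM summed over the members of each subfamily (y axis) in the 2 Cont-IMQ and 2 7KC-IMQ libraries, with the group mean as a line. The Sprr2 sum lies at 547 to 771 FPKM in the Cont-IMQ and 1689 to 2820 in the 7KC-IMQ group, whereas the Lce1 sum of the 7KC-IMQ libraries lies between the 2 Cont-IMQ libraries.

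The subfamilies were also related to keratins of the same library, which does not depend on the scaling between libraries. Relative to Krt1 plus Krt10, the summed Sprr2 level was 5.39% and 7.02% in the Cont-IMQ group and 18.1% and 27.1% in the 7KC-IMQ group. The Lce3 level was 1.48% and 2.2% against 3.29% and 4.81%. Both subfamilies therefore stayed without overlap. Lce1 was at 46.4% and 46.2% in the Cont-IMQ group and 50.9% and 40.8% in the 7KC-IMQ group, and the gap between the Cont-IMQ libraries seen in FPKM was absent from this ratio. Sprr1 overlapped on this scale, at 7.77% and 15.7% against 14.6% and 18.2%.

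Relative to the basal keratins Krt5 plus Krt14, Sprr2 was at 10.3% and 8.20% in the Cont-IMQ group and 22.3% and 33.5% in the 7KC-IMQ group. Lce3 was at 2.83% and 2.57% against 4.04% and 5.93%. On this scale Lce1 again overlapped, at 88.9% and 53.9% against 62.7% and 50.3%, and Sprr1 did as well, at 14.9% and 18.3% against 17.99% and 22.5%.

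Ratios between subfamilies within a library also separated the groups. The Sprr2 sum was 0.116 and 0.152 times the Lce1 sum in the Cont-IMQ group and 0.355 and 0.665 times in the 7KC-IMQ group. The Lce3 sum was 0.0318 and 0.0476 times the Lce1 sum in the Cont-IMQ group and 0.0645 and 0.118 times in the 7KC-IMQ group. Sprr2 was also higher relative to Sprr1, with 0.694 and 0.447 in the Cont-IMQ group and 1.24 and 1.49 in the 7KC-IMQ group, and relative to Lce3, with 3.65 and 3.19 against 5.50 and 5.64. These ratios are descriptions over 2 libraries per group and were not tested.

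**Figure D5:**
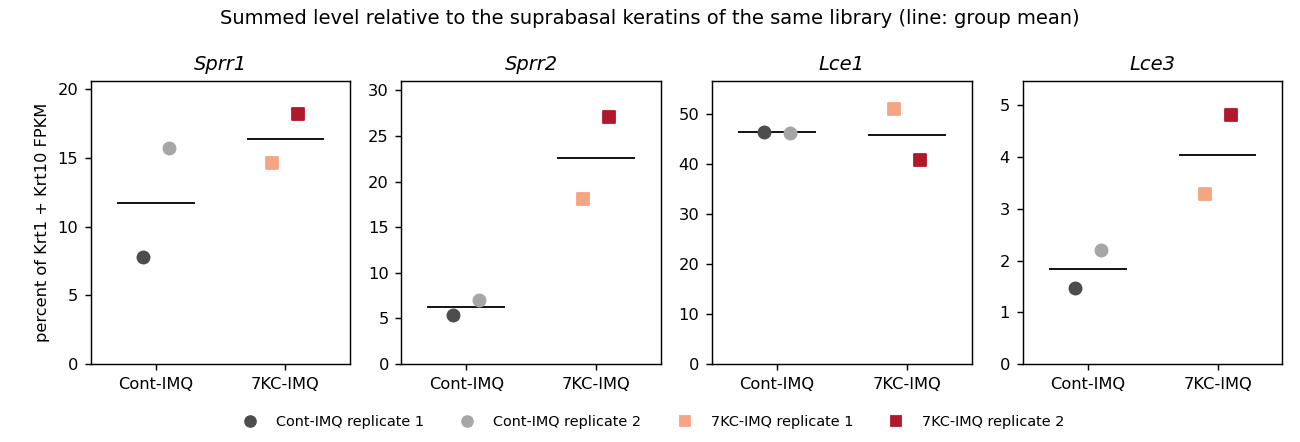
Summed level of each subfamily as a percent of Krt1 plus Krt10 FPKM of the same library (y axis) in the 2 Cont-IMQ and 2 7KC-IMQ libraries, with the group mean as a line. Sprr2 lies at 5.39% and 7.02% against 18.1% and 27.1%, Lce3 also separates, and Lce1 and Sprr1 overlap between the groups.

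Other proteins of the cornified envelope and barrier were compared by the same test, as a list of 26 genes of which 24 were tested. Flg, which encodes filaggrin, had no value in the deposited data and was not among the 24. Of these, 2 were higher in 7KC-IMQ skin without overlap, 4 were lower and 18 overlapped, against 23.9% of all genes higher and 22.9% lower. The median difference was -0.07, and 0 passed the adjusted threshold. With unadjusted p under 0.05, 2 were higher and 2 lower, against 7.5% and 5.47% of all genes. Lor, which encodes loricrin, the most abundant envelope protein, had 1808 and 1187 FPKM in Cont-IMQ skin and 1343 and 1436 FPKM in 7KC-IMQ skin. Its difference was -0.08 (SE 0.23, adjusted p = 0.913). Ivl, which encodes involucrin, the early scaffold of the envelope, had 302 and 353 FPKM in Cont-IMQ skin and 214 and 233 FPKM in 7KC-IMQ skin. Its groups did not overlap, and the difference was -0.54 (SE 0.11, adjusted p = 0.352).

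Tgm1, the membrane-bound transglutaminase that cross-links SPRR and LCE proteins, had 94.0 and 91.5 FPKM in Cont-IMQ skin and 119 and 159 FPKM in 7KC-IMQ skin, with a difference of 0.56 (SE 0.15, adjusted p = 0.356). The highest difference of the list was that of Cnfn, encoding the envelope protein cornifelin, at 0.59 (SE 0.17, adjusted p = 0.356). The lowest was that of Flg2, encoding filaggrin 2, at -0.92 (SE 0.28, adjusted p = 0.360).

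A list of 22 transcription factors of the granular layer and of stressed epidermis had 7 genes higher, 3 lower and 12 overlapping, against 23.9% higher and 22.9% lower of all genes. The median difference was 0.01, with 0 past the adjusted threshold. At an unadjusted p under 0.05, 4 were higher and 1 lower, against 7.5% and 5.47% of all genes. Klf4, a regulator of barrier formation, had 320.3 and 367 FPKM in Cont-IMQ skin and 248 and 364 FPKM in 7KC-IMQ skin, which overlapped (difference -0.19, SE 0.21, adjusted p = 0.730). Nfe2l2, encoding NRF2, had 63.6 and 70.5 FPKM against 76.1 and 82.1, without overlap (difference 0.24, SE 0.09, adjusted p = 0.382). Ehf, an epithelial ETS factor, had the highest difference of the list, 0.69 (SE 0.21, adjusted p = 0.360), and its levels were 41.5 and 29.4 FPKM against 50.1 and 64.7. The lowest was that of Fosb, an AP-1 subunit, at -1.79 (SE 1.18, adjusted p = 0.570), whose groups overlapped.

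Since AP-1 matches were present in Sprr1 and Sprr2 promoters, the Fos and Jun genes of the list were looked at after their values had been seen. Fos had 496 and 546 FPKM in Cont-IMQ skin and 97.4 and 277 FPKM in 7KC-IMQ skin, without overlap (difference -1.66, SE 0.50, adjusted p = 0.360). Fosl2 had 37.4 and 48.7 FPKM against 49.1 and 57.4, also without overlap but in the other direction (difference 0.31, SE 0.16, adjusted p = 0.484). The groups overlapped in Fosb, Fosl1, Jun, Junb and Jund. Any relation of these levels to those of the Sprr genes was not tested.

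Markers of other cells are given beside the same share of all genes, 23.9% higher and 22.9% lower without overlap. Of 5 neutrophil markers, 4 were tested and all 4 were higher in both 7KC-IMQ libraries. Their summed level was 18.4 and 21.2 FPKM in Cont-IMQ skin and 28.5 and 31.0 FPKM in 7KC-IMQ skin. Most of this sum was Cxcr2, at 13.4 and 15.0 FPKM in Cont-IMQ skin and 20.2 and 23.0 FPKM in 7KC-IMQ skin. Of 6 sebaceous gland markers, 4 were higher and 2 lower without overlap, with sums of 500.1 and 384 FPKM against 585 and 578. The summed levels of the 7 keratinocyte markers were 22416 and 15025 FPKM in Cont-IMQ skin and 17451 and 19359 FPKM in 7KC-IMQ skin. Sums of adipocyte (5 genes), fibroblast (4 genes) and red blood cell (4 genes) markers overlapped between the groups. That of 6 skeletal muscle markers was lower without overlap, at 7074 and 6985 FPKM against 5739 and 6873. Among single markers, 2 adipocyte markers were higher without overlap and 0 lower, and 2 muscle markers were higher and 2 lower. Without overlap, 1 keratinocyte marker was higher and 1 lower, and 1 fibroblast and 1 red blood cell marker were lower. That red blood cell marker, Hbb-bs, had 8.32 and 0.00438 FPKM in Cont-IMQ skin and 0.00392 and 0.00430 in 7KC-IMQ skin. Only Cont-IMQ replicate 1 held more than a trace of it. The part of these cells in the Sprr2 and Lce3 differences was not tested.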

How the data were processed

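RNA from dorsal skin was prepared with a stranded mRNA kit and sequenced in 75-base single-end mode. The authors mapped reads to mm10 with TopHat, Bowtie2 and SAMtools and computed FPKM per gene with Cufflinks. The submitters' processing notes name TopHat2 2.1.1, Bowtie2 2.2.8, SAMtools 0.1.18 and Cuffdiff 2.2.1, whereas the paper gives other versions of some of these. The deposited values are FPKM, already scaled to library and gene length. How reads that map to several genes were treated is not given in the sources used here. Read counts were not used, so no count model was fitted.

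The FPKM values were transformed to log2(FPKM + 1) as deposited. Genes whose FPKM averaged 0.1 or more over the libraries were compared with limma 3.58.1 (lmFit and eBayes with a mean-variance trend) in R 4.3.3, two-sided, with Benjamini-Hochberg adjustment over all 15896 genes at 0.05. The script was tested on simulated data. Summed FPKM, ratios and counts were described without a test. Depth was estimated from steps in the values of 587 to 613 weakly expressed genes with a single transcript, using an assumed fragment length of 200 bases (SD 80), and covers counting error only. Gene coordinates came from GENCODE M21 (GRCm38), and all 37 members were found there. Shared sequence was computed from its transcripts in windows of 75 bases. Promoters came from RefSeq (GRCm38.p6).

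Groups were taken from the sample labels. The members and gene lists were chosen with earlier results of these data known. FPKM in every library is given for each member whose mean is 1 or more. Difference, SE and adjusted p are given for the 2 members of each subfamily with the highest mean and the member with the largest difference. Genes that are not members are named only as keratin references, as Lor, Ivl, Flg, Tgm1, Klf4 and Nfe2l2, or as the largest rise or fall of a list. The Fos and Jun genes, Prr9, Cxcr2 and Hbb-bs were added after their values were seen. The 9 alternatives changed the pseudocount (0.1), the filter (mean FPKM 1 or none), the scaling (median ratio, equal sums or quantiles), the variance model (without the trend), the pairing (replicate block) or the libraries (each left out in turn). For the lists, the alternatives were added after the data had been seen.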

Additional observations from a re-analysis of the deposited data

How the results depend on the processing

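No member passed the adjusted threshold under the alternatives that kept all libraries. The direction did not change for any Sprr1, Sprr2 or Lce3 gene in 238 refits of single genes. Since the groups did not overlap in these genes, only the changes of scaling could have reversed it. The other refits are therefore no check of the direction. Over all genes, 1 was called, against 2 with a pseudocount of 0.1, 71 without a filter (58 of them with a mean FPKM under 0.1) and 1 to 11 when a library was left out. When a library was left out, between 20 and 35 members were higher and between 1 and 16 lower without overlap. With the same sum in each library and with quantile normalization, 2 were lower. The number higher was 19 with quantile normalization. It was 18 with the filter at a mean FPKM of 1, which left out Sprr2a2 and Sprr2k. The list of other cornified envelope proteins had 0 calls under the alternatives that kept all libraries. The result for Prr9 depended on the Cont-IMQ libraries. Its difference was -2.35 without Cont-IMQ replicate 1, against -0.17 with all libraries. Prr9 had 6.07 and 144 FPKM in Cont-IMQ skin and 27.6 and 27.3 FPKM in 7KC-IMQ skin, so the groups overlapped. Replicates 1 and 2 are numbered alike in both groups, but the labels tie no litter, batch or day to a number. With the replicate block 1 gene and 0 members were called, and deviations of same-numbered libraries correlated at 0.065 across 15896 genes, which are not independent replicates.

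Leaving out a library gave a log2 ratio of summed FPKM of 0.22 to 0.70 for Sprr1, 0.68 to 1.39 for Lce3, -0.56 to 0.32 for Lce1 and -0.51 to 0.62 for Lce6a, and a median difference of -0.53 to 0.59 for Lce1. Sign changes occurred in 27 of 430 refits and in 15 genes. With a library left out, the difference ranged from -0.52 to 0.27 for Lce1a1, -0.47 to 0.22 for Lce1a2, -0.50 to 0.23 for Lce1b, -0.55 to 0.20 for Lce1c, -0.41 to 0.52 for Lce1d, -0.46 to 0.68 for Lce1e, -0.50 to 0.65 for Lce1f, -0.59 to 1.08 for Lce1g, -0.68 to 1.01 for Lce1h, -0.46 to 0.67 for Lce1i, -0.58 to 0.78 for Lce1j, -0.54 to 0.67 for Lce1k, -0.67 to 0.32 for Lce1l, -0.51 to 0.60 for Lce6a and -0.049 to 0.099 for Sprr4. With the same sum in each library it was -0.026 for Lce1d, -0.010 for Lce1f, -0.018 for Lce1k, -0.034 for Lce6a and -0.057 for Sprr4. With quantile normalization it was -0.040 for Lce1d, -0.015 for Lce1f, -0.027 for Lce1k, -0.052 for Lce6a and -0.078 for Sprr4, whose log2 ratio of summed FPKM was -0.079. The cause of these changes was not tested. Depth limits Sprr3 and Sprr2k, which rest on 9 reads or fewer in each library.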
